A study of Mus musculus with 4 samples.

Results

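The genes described here carry out and control the synthesis of cholesterol and fatty acids. They were chosen by name, as every probe set (the group of probes that measures a transcript on an Affymetrix array) annotated with 1 of 34 gene symbols: enzymes of the mevalonate pathway, enzymes from squalene to cholesterol, enzymes of fatty acid synthesis, elongation and desaturation, and regulators and carriers of sterols. Of these 34 genes, 26 had a probe set, among 8236 genes with a symbol of their own on the array, and they were measured by 39 of 12403 gene probe sets. A filter on dim signals, described where it first matters, left 28 probe sets of 22 genes for testing. Acat2, Pmvk, Srebf2, Insig2, Scap, Stard4, Acaca and Fads2 were not analysed here for expression.

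Total RNA came from 4 stable clones of the mouse neural stem cell line c17.2, all grown in proliferating conditions, and each clone was hybridised to 1 array. Clone 42 and clone 48 had been transfected with Nurr1, an orphan nuclear receptor. The controls puroB and puroD carried an empty puromycin vector. By the sample descriptions, lines of like proliferation rate were paired, clone 42 to puroB and clone 48 to puroD. Each line is 1 clone, so that a property of a clone and an effect of the transfected gene cannot be told apart in a single pair, and the n of each group is 2 clones. The sources used here do not give the promoter that drives Nurr1.

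Cholesterol is built from acetyl-CoA, which the mevalonate pathway turns into farnesyl diphosphate, squalene and then sterols. Fatty acids are built from the same acetyl-CoA by acetyl-CoA carboxylase and fatty acid synthase, and are then elongated and desaturated. Both branches are transcribed under the control of the sterol regulatory element-binding proteins. When membrane sterol is low these factors are carried by Scap from the endoplasmic reticulum to the Golgi and cut free, and Insig proteins hold them back when sterol is high. The factor encoded by Srebf2 acts mainly on sterol genes and that encoded by Srebf1 mainly on fatty acid genes, and dividing neural cells need both products for new membrane.

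Several properties of the arrays bear on these genes. For beta-actin the 3' probe set gave 1.68 times the signal of the 5' one in clone 42 and 1.51 times in puroB. It gave 2.41 times in clone 48 and 2.0 times in puroD. For Gapdh the same ratio was 0.935 in clone 42, 0.859 in puroB, 1.24 in clone 48 and 0.973 in puroD. Such a ratio grows as RNA or its copies become shorter. Nr4a2, the gene of Nurr1, was lower in the clone labelled Nurr1 in both pairs, by -0.60 and -0.30 on the log2 scale at the probe set 92248_at and by -0.98 and -0.91 at 92249_g_at. The sources used here do not say whether its probes lie in the transfected sequence, and the clones are called Nurr1-labelled for that reason. The summed signal of 9 proliferation genes was 11210 in clone 42, against 21090 in puroB, 22350 in clone 48 and 23480 in puroD. Clone 42 thus lay below puroB, its described match by proliferation rate, in all of these genes but Pcna (log2 ratio 0.15). Of 11 neural stem and progenitor markers 9 had a probe set, with summed signals of 5231 and 5378 in clones 42 and 48 against 6462 and 6703 in puroB and puroD. Nes, the intermediate filament nestin, had signals between 3029.8 and 3719.8, and the other 4 tested markers, Fabp7, Hes1, Notch1 and Id2, were lower in the Nurr1-labelled clone of both pairs, Fabp7 by -1.20 and -3.29 on the log2 scale. Of the untested ones Pax6 was at 60.0 or less and Vim at 84.6 or less on every array. The dim markers Msi1, Cd24a and Vim were higher in clone 42 than in puroB, by 0.36, 0.71 and 1.07 on the log2 scale. In clone 48 over puroD their log2 ratios were -1.18, -0.72 and 0.09. Of 5 adipocyte markers 3 had a probe set: Adipoq and Fabp4, which define that cell type, were at 50.7 or less on every array, and Lep had 585.3 in clone 42, 453.2 in puroB, 218.4 in clone 48 and 333.9 in puroD, higher in the pair of clone 42 as most sterol genes were; its part in the results was not tested. Of 11 oligodendrocyte markers 8 had a probe set, and their sum was between 3959 in puroD and 8049 in clone 48, most of it Sox10. Mag (119.9 to 150.3) and Mbp (75.5 to 175.8) were tested, Pdgfra had 29.4 in clone 48 against 212.0 to 232.4 elsewhere, and Mobp had at most 62.2, in clone 48. The myelin genes Mog, Ugt8a and Cnp lay under the highest control for a transcript that was not spiked in on each of the 4 arrays, a level of 39.1 to 62.7 depending on the array. The sum of 8 fibroblast and mesenchymal markers was highest in clone 42, at 11430, then 7570 in clone 48, 4866 in puroD and 3922 in puroB. Most of it was Col3a1, Snai2 and Col1a2. The other tested ones differed: Twist1 was lowest in clone 42, at 53.9 against 133.5 to 202.2, and Col1a1 was highest in puroD, at 559.3 against 207.7 to 267.1. The sums of 5 astrocyte markers ran from 3408 to 5283 and those of 6 microglia markers from 422.4 to 645.9. In RNA from whole cultures, fewer cells of a type and less RNA per cell cannot be told apart.

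Promoter sequences were set beside the expression values because most sterol genes took the same order over the pairs. RefSeq windows of 300 bases, from 250 before to 50 after the transcription start (GRCm38.p6), were found by symbol for 26 of the 34 genes; Fdps, Fdft1, Sqle, Stard4, Npc1, Scd1, Scd2 and Fads1 had none in that table. Of the genes with a window, the 5 with the largest difference between the pairs are shown, each as the 250 bases before the start, 5′ to 3′ on the strand of the gene. Capitals mark CCAAT on either strand (ATTGG on the strand shown), the box bound by NF-Y, a factor that works beside the sterol regulatory element-binding proteins, and in Hmgcs1 the letters TCACNCCAC, a form of the sterol regulatory element. The windows lie at chr13:119690101-119690350 on the plus strand for Hmgcs1, chr8:122443423-122443672 on the minus strand for Mvd, chr5:4104698-4104947 on the minus strand for Cyp51, chr8:64733579-64733828 on the minus strand for Msmo1 and chrX:72918271-72918520 on the plus strand for Nsdhl.
Hmgcs1: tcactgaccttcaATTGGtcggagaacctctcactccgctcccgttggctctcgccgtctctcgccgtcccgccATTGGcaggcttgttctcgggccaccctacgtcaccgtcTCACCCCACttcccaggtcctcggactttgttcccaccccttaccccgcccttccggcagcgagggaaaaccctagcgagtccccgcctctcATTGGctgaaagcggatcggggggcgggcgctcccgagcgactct
Mvd: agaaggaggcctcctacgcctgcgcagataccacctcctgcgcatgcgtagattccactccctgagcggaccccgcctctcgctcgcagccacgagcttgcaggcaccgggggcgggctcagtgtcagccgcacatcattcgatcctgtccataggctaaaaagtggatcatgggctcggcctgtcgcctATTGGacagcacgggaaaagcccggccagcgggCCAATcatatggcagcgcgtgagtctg
Cyp51: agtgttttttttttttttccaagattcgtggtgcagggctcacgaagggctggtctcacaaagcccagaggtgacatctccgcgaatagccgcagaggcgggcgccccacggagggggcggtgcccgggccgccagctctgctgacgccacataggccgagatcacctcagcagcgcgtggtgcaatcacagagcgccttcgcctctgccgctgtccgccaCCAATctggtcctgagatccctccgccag
Msmo1: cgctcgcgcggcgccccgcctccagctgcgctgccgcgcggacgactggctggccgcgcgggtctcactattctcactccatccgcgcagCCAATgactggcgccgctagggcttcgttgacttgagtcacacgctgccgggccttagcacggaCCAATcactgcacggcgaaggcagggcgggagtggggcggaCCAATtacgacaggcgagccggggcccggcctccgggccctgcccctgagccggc
Nsdhl: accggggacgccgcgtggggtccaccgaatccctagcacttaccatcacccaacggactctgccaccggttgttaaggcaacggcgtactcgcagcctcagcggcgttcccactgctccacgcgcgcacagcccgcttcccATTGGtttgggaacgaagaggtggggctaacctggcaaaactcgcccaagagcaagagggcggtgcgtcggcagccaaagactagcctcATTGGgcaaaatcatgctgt

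All 5 stretches hold CCAAT and none holds CACGTG, the E-box that the sterol regulatory element-binding proteins can also bind. Msmo1 and Hmgcs1 each hold 3 such boxes, Mvd and Nsdhl 2, and Cyp51 1, which starts 29 bases before the transcription start. In the full windows CCAAT was present in 14 of 15 sterol synthesis genes (93.3%) and in 2 of 5 fatty acid genes (40.0%): Fasn, and Acly, where it lies after the start. These 5 were Acly, Acaca, Fasn, Elovl6 and Fads2, of which Acaca and Fads2 had no probe set. Scd1, Scd2 and Fads1, which shared the order of most sterol genes over the pairs, had no window. Nor had Fdps, Fdft1 and Sqle of the sterol genes. Over all 27025 genes with a window the share was 41.1%, and over the 4049 of them with a tested probe set 43.6%; base composition and the number of windows per gene were not matched. Acat2, the thiolase that makes acetoacetyl-CoA, was the 1 sterol gene without the box. Genes with the box also included Mvk, Ebp, Tm7sf2 and Fasn, whose log2 differences between the pairs were 0.05, -0.08, -0.19 and -0.10. A link between the box and the difference was not tested. The sterol regulatory element in the form TCACNCCAC was found in Hmgcs1 alone, starting 137 bases before its start. It was in 1.44% of all genes and in 1.68% of those with a tested probe set. CACGTG was found in 3 of the 15 sterol genes (Hsd17b7, Sc5d and Dhcr7) and in 0 of the 5 fatty acid genes. Its share was 8.09% of all genes and 13.1% of those with a tested probe set. A genuine site can differ from these letters or lie outside the window. No match overlapped a match of another motif, but in Fasn a pair of CCAAT matches on opposite strands shared bases.

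**Figure D1:**
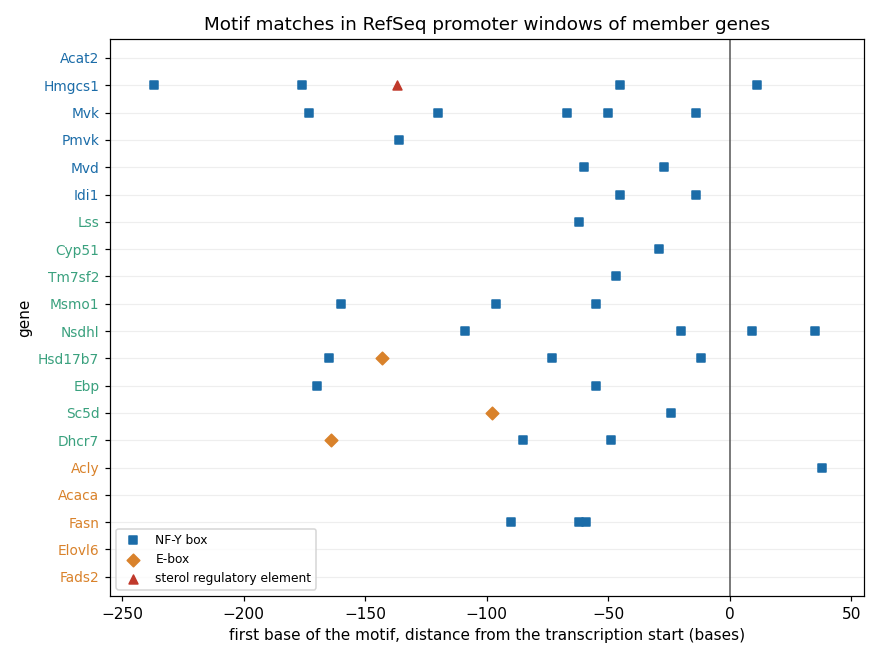
Matches of CCAAT (NF-Y box), CACGTG (E-box) and TCACNCCAC (sterol regulatory element) in RefSeq promoter windows, by distance of the motif's first base from the transcription start in bases; blue names are mevalonate genes, green names squalene and sterol genes, orange names fatty acid genes. All windows of a gene are drawn on its row. CCAAT appears on every sterol gene's row but that of Acat2, and on 2 of 5 fatty acid rows.

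Of 5 tested mevalonate enzymes, 0 passed between the pairs, where 0.389% of all tested probe sets passed as higher and 0.0935% as lower. In 4 of them both arrays of the clone 42 pair lay above both of the other, against 23.4% of all tested probe sets. Clone 42 was the highest array in the same 4, against 26.6% of all. Hmgcs1, the synthase that makes HMG-CoA, had signals of 2497 in clone 42, 1314 in puroB, 822.5 in clone 48 and 665.0 in puroD (probe set 94325_at). Both arrays of the first pair therefore lay above both of the other. The difference between the pairs was 1.29 ± 0.31 (log2, SE, 2 clones per pair; limma adjusted p = 0.102), or 2.45-fold. Within the pairs clone 42 was 1.90-fold above puroB and clone 48 1.24-fold above puroD, and the mean of these was 0.62 ± 0.31 (limma adjusted p = 0.752).

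Mvd, which decarboxylates mevalonate diphosphate to isopentenyl diphosphate, followed the same order. Its signals were 607.7 in clone 42, 291.6 in puroB, 173.8 in clone 48 and 152.7 in puroD (160770_at). The pair of clone 42 was 2.58-fold above the other (1.37 ± 0.33; limma adjusted p = 0.104). Idi1, the isomerase of isopentenyl diphosphate, stood out in clone 42 alone: its signals were 3853 there, 1267 in puroB, 984.2 in clone 48 and 1012 in puroD (96269_at). The ratio was 3.04-fold within the first pair and 0.973-fold within the other. The Idi1 difference between the pairs, 1.15 ± 0.38 (limma adjusted p = 0.245), holds ratios as far apart as 1.25-fold for the control clones and 3.91-fold for the Nurr1-labelled clones.

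Fdps, which joins isoprene units into farnesyl diphosphate, split by pair more than by label. Its brightest probe set, 99098_at, gave 3437 in clone 42 and 2930 in puroB, against 1533 in clone 48 and 1131 in puroD. That is 2.41-fold between the pairs (1.27 ± 0.31; limma adjusted p = 0.108), and a probe set that may take in related sequences, 160424_f_at, gave 1.86-fold. The other Fdps probe sets were dim and were not tested: 162281_at had the reverse order, with 35.1 in clone 42 and 71.3 in puroB against 93.9 in clone 48 and 75.5 in puroD, and 162217_r_at was at 21.8 or less. Mvk, the kinase of mevalonate, was the exception of the group, with 472.8, 475.4, 390.1 and 539.7 in clone 42, puroB, clone 48 and puroD (95633_r_at), so that the arrays of the pairs overlapped. Its difference between the pairs was 0.05 with a 95% interval from -0.58 to 0.67.

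**Figure D2:**
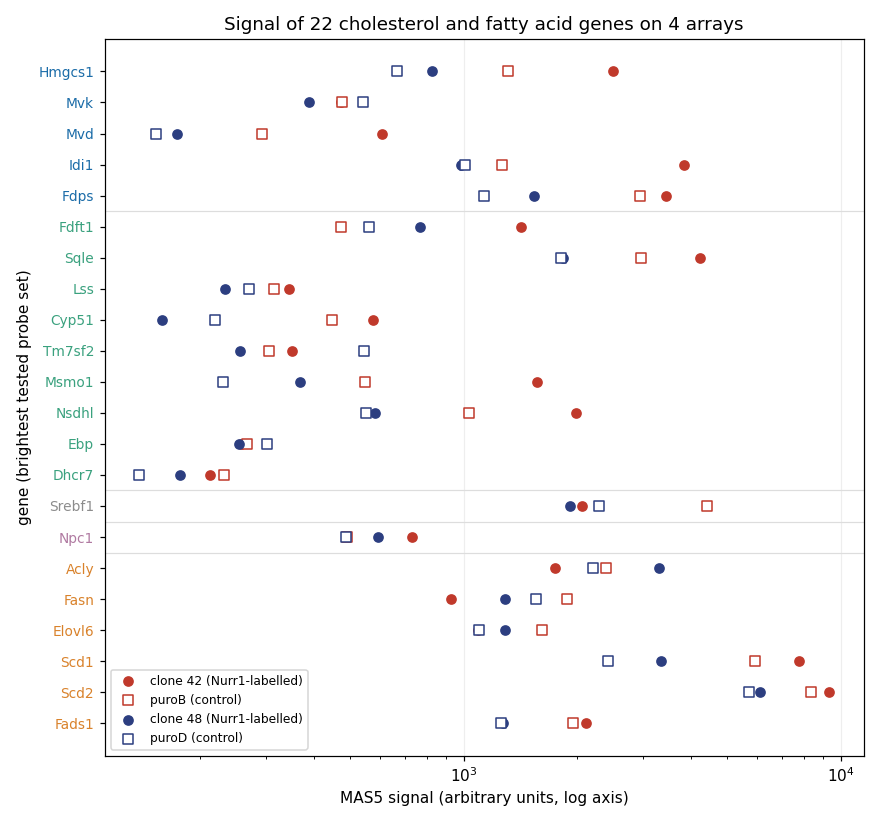
MAS5 signal (arbitrary units, log axis) of the brightest tested probe set of each of 22 genes, with 1 point per array: circles are Nurr1-labelled clones, open squares control clones, red the pair of clone 42 and puroB, blue the pair of clone 48 and puroD. Signals can be compared along a row and not between rows. Both red points lie to the right of both blue points in 13 of 22 genes, against 23.4% of all tested probe sets. Among them are Hmgcs1, Mvd, Fdps, Msmo1 and Scd1. Both lie to the left in 0 genes, against 16.8%.

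Of the enzymes from squalene to cholesterol, Msmo1 rose in the pair of clone 42, and Cyp51 and Nsdhl had differences nearly as large that did not pass. Msmo1, the oxidase that removes methyl groups from sterols, had signals of 1566 in clone 42, 548.2 in puroB, 369.1 in clone 48 and 229.8 in puroD (160388_at). The difference between the pairs was 3.18-fold (1.67 ± 0.31, SE, n = 2 clones per pair; limma adjusted p = 0.0360), higher in both the control and the Nurr1-labelled comparison. Without clone 42 it was 0.91, without clone 48 2.01 and without puroD 1.33, each without a call, and without puroB it was 2.43 and called. The call was also lost with quantile normalization (1.61), with no filter, with no intensity trend and without the label in the fit, over adjusted p-values from 0.000205 to 0.982 in all alternatives. Among tested members Msmo1 also had the largest fitted difference between labels, 2.86-fold in the first pair and 1.61-fold in the other (1.10 ± 0.31; limma adjusted p = 0.206). Scaled to the median of each array, that difference was called (1.27), as it was without clone 48 (2.14), whereas without clone 42 it was 0.056.

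Nsdhl, which removes the carboxyl carbon after the oxidase, was read by 3 probe sets that gave the same order. The brightest, 98631_g_at, had 1983 in clone 42, 1034 in puroB, 581.9 in clone 48 and 549.5 in puroD. It was 2.53-fold higher in the first pair (1.34 ± 0.32; limma adjusted p = 0.089), and the others were 2.60-fold and 1.86-fold higher. Cyp51, the lanosterol demethylase, had 575.4 in clone 42 and 448.9 in puroB, against 158.8 in clone 48 and 219.8 in puroD (94916_at). Its difference of 2.72-fold between the pairs (1.44 ± 0.32; limma adjusted p = 0.0669) came without a common direction by label: 1.28-fold higher in clone 42 than in puroB, and 0.722-fold in clone 48 against puroD. Sqle, the epoxidase that acts on squalene, had 4241, 2955, 1836 and 1815 in clone 42, puroB, clone 48 and puroD (94322_at). That is 1.94-fold between the pairs (0.96 ± 0.32; limma adjusted p = 0.256).

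Fdft1, the squalene synthase, departed from this order. Its signals were 1418 in clone 42, 474.5 in puroB, 768.8 in clone 48 and 560.2 in puroD (97518_at), so that each Nurr1-labelled clone lay above both controls. Within the pairs the ratios were 2.99-fold and 1.37-fold (mean 1.02 ± 0.33; limma adjusted p = 0.324), and the difference between the pairs was 0.32 with an interval from -0.38 to 1.02. Tm7sf2, a sterol reductase, had its highest signal in puroD, 543.2, against 350.3 in clone 42, 304.8 in puroB and 254.9 in clone 48 (95383_at), and was the 1 tested member 2-fold or more lower in clone 48 than in puroD, as 3.72% of all tested probe sets were. Lss, the cyclase that makes lanosterol, ran from 233.3 to 343.5, Ebp, a sterol isomerase, from 253.4 to 301.8, and Dhcr7, which catalyses the last reduction to cholesterol, from 138.0 to 231.8. For these 3 the fitted differences between the pairs were 0.39, -0.08 and 0.50, with limma adjusted p-values of 0.732, 0.966 and 0.691. Hsd17b7, a sterol ketone reductase, and Sc5d, a desaturase, were too dim to be tested. Hsd17b7 had 159.7 in clone 42 against 60.9, 42.8 and 49.7 in puroB, clone 48 and puroD (94177_at), with puroD under its control level. Sc5d had 163.8 in clone 42 and 123.3 in puroB, against 62.3 in clone 48 and 79.1 in puroD (102768_i_at), so that its pairs did not overlap.

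Over the 2 sterol groups together, 17 probe sets of 14 genes were tested, and 10 genes had both arrays of the clone 42 pair above both of the other, where 23.4% of all 6419 tested probe sets did. Of the 14, 0 lay the other way round, where 16.8% of all did. Clone 42 was the highest of the 4 arrays in 10 of the 14, against 26.6%. In the fit, 1 of 17 probe sets passed as higher in the pair of clone 42 (background 0.389%) and 0 as lower (0.0935%). At an unadjusted limma p under 0.05, 11 probe sets were higher (6.76%) and 0 lower (3.86%). Some of these read the same gene, and by gene 8 of 14 were higher at that level and 0 lower. All 31 calls of that comparison, over every gene, were 25 higher and 6 lower. In clone 42 over clone 48, 8 of 14 genes differed by 2-fold or more upward (6.15%) and 0 downward (4.58%), and in puroB over puroD 3 did (3.02%). The pair in which these enzymes were lower was also that of the higher 3' to 5' actin ratio. By the Gapdh ratio puroD (0.973) lay near clone 42 (0.935), and clone 48 had 1.24. Clone 42, where most of these enzymes were highest, had the lowest sum of proliferation genes. The part of these properties in the result was not tested.

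**Figure D3:**
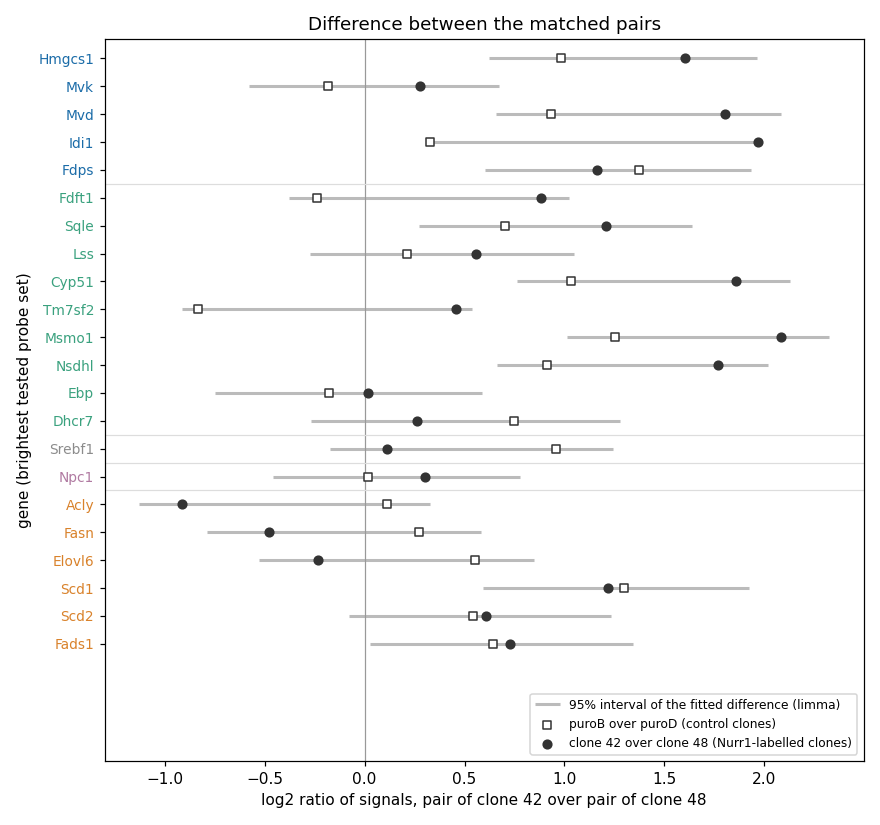
Difference between the matched pairs for each gene's brightest tested probe set, as log2 ratios of signals: open squares are puroB over puroD, filled circles clone 42 over clone 48, and grey lines the 95% interval of the fitted difference. Both ratios of Msmo1 (1.25 and 2.09), Cyp51 (1.03 and 1.86), Fdps (1.37 and 1.16) and Scd1 (1.30 and 1.22) lie above 1. On opposite sides of 0 lie those of the fatty acid genes Acly, Fasn and Elovl6. The same holds for the sterol genes Mvk, Fdft1, Tm7sf2 and Ebp.

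Of the regulators, Srebf1 was bright enough to be tested and Insig1 was not. Srebf1, the sterol regulatory element-binding protein of the fatty acid branch, had signals of 2065 in clone 42, 4434 in puroB, 1913 in clone 48 and 2286 in puroD (93264_at). PuroB alone stood high. Clone 42 was thus 2.15-fold lower than puroB, a difference that 4.78% of all tested probe sets reached downward in that pair, and clone 48 was 0.837-fold against puroD. The mean by label was -0.68 ± 0.33 (limma adjusted p = 0.714), and between the pairs 0.53 ± 0.33 (limma adjusted p = 0.634), a value that was -0.018 without puroB. Insig1 was between 5.2 and 19.6 on all arrays (92396_at), under the floor of 40.27 to which dim signals were raised, so that its order is unknown.

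Among carriers of sterol, Npc1, the lysosomal protein that releases cholesterol to the cell, had signals of 731.8 and 593.6 in the Nurr1-labelled clones 42 and 48, and of 492.2 and 486.8 in puroB and puroD (98114_at). Both Nurr1-labelled clones lay above both controls, by 1.49-fold and 1.22-fold in the pairs (0.43 ± 0.29; limma adjusted p = 0.870). Abca1, which exports cholesterol and rises when sterol is plentiful, exceeded the filter on clone 42 alone and was not tested. Its signals were 389.5 in clone 42, 109.6 in puroB, 126.9 in clone 48 and 48.0 in puroD (94354_at), with puroD under its control level. At this probe set clone 42 had 3.55-fold the signal of puroB and clone 48 2.64-fold that of puroD, and the other, dimmer Abca1 probe set gave 149.0 in clone 42 against 61.3, 21.6 and 47.9 in puroB, clone 48 and puroD.

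Of 9 tested fatty acid probe sets, 1 passed as higher in the pair of clone 42 (0.389% of all tested probe sets) and 0 as lower (0.0935%). Scd1, Scd2 and Fads1 were the 3 of 6 genes with both arrays of that pair above both of the other at the brightest probe set (23.4%). None lay the other way round (16.8%). Scd1, the stearoyl-CoA desaturase that makes oleic acid, passed as higher in the pair of clone 42 at 1 of its tested probe sets. There it gave 4276 in clone 42 and 3404 in puroB, against 771.7 in clone 48 and 1532 in puroD (94057_g_at; 3.51-fold, 1.81 ± 0.36, n = 2 clones per pair; limma adjusted p = 0.0399). The brighter probe set, 94056_at, gave 7783 and 5940 against 3343 and 2419, a difference of 2.39-fold that did not pass (1.26 ± 0.31; limma adjusted p = 0.112). These probe sets disagreed by label in the pair of clone 48, with ratios of 0.504-fold and 1.38-fold. A dim Scd1 probe set that was not tested, 94058_r_at, had 100.9 in clone 42 and 81.9 in puroB. It had 91.2 in clone 48 and 88.1 in puroD, so that its pairs overlapped. The call was lost without clone 42 (1.65), without clone 48 (1.32), without puroD (2.31), with quantile normalization (1.84), with no filter, with no intensity trend and without the label in the fit, over adjusted p-values from 3.3e-05 to 0.982. Without puroB it was 1.98 and called.

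Scd2, the form of the desaturase prominent in brain, and Fads1, a desaturase of long polyunsaturated chains, differed less. Scd2 had 9321 in clone 42 and 8335 in puroB, against 6112 in clone 48 and 5716 in puroD (95758_at; 0.58 ± 0.31; limma adjusted p = 0.556), and 0.15 at a second probe set, 162077_f_at. Fads1 had 2109 and 1957 against 1275 and 1254 (160391_at; 0.68 ± 0.31; limma adjusted p = 0.438). In both genes the pairs did not overlap at the probe set shown, and the labels differed by at most 1.12-fold within a pair. Scd1 and Scd2 are close paralogs, and probes of one may take up transcripts of the other.

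Fasn, the fatty acid synthase, had 923.5 in clone 42, 1883 in puroB, 1285 in clone 48 and 1559 in puroD (98575_at), so that both controls lay above both Nurr1-labelled clones. Clone 42 was 2.04-fold lower than puroB and clone 48 0.824-fold against puroD (-0.65 ± 0.32; limma adjusted p = 0.717). Elovl6, which elongates palmitate, was highest in puroB at both probe sets, with 1612 against 1092, 1284 and 1098 in clone 42, clone 48 and puroD (103665_at), and 777.7 against 348.7, 357.6 and 371.5 (94418_at). At the second of these it was 2.23-fold lower in clone 42 than in puroB. Acly, which makes cytosolic acetyl-CoA from citrate, ran from 1751 in clone 42 to 3301 in clone 48, with 2384 in puroB and 2206 in puroD (160207_at), and differed in opposite directions in the pairs.

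**Figure D4:**
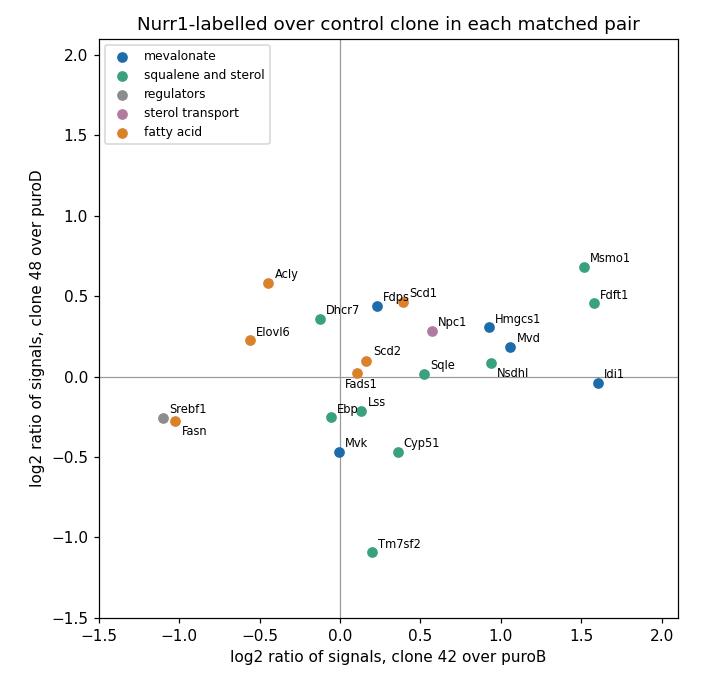
Log2 ratio of the Nurr1-labelled over the control clone for 22 genes, clone 42 over puroB on the horizontal axis and clone 48 over puroD on the vertical axis; colours give the group of the gene. Msmo1 and Fdft1 lie at the upper right (1.51 and 0.68, 1.58 and 0.46), Srebf1 and Fasn at the lower left (-1.10 and -0.26, -1.03 and -0.28), and Idi1 near the horizontal axis.

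Set side by side, the medians of the branches lay farthest apart in the ratios that hold clone 42. In clone 42 over puroB the median log2 ratio was 0.44 over the 14 sterol genes and -0.17 over the 6 fatty acid genes, beside -0.060 over all 6419 tested probe sets. Of the sterol genes 11 were higher in clone 42 (45.0% of all) and 4 by 2-fold or more (3.57%): Idi1, Fdft1, Msmo1 and Mvd. Of the fatty acid genes 3 were higher and 1, Fasn, was 2-fold or more lower (4.78% of all). In clone 48 over puroD the medians were 0.050 and 0.16, beside -0.035, and 0 of the 22 genes were 2-fold or more higher (1.67%). In that pair 8 of 14 sterol and 5 of 6 fatty acid genes were higher in clone 48, against 47.0% of all.

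Between the control clones the branches lay closer together. In puroB over puroD the medians were 0.73 for sterol genes and 0.55 for fatty acid genes, beside 0.067, and 10 of 14 and 6 of 6 were higher in puroB (56.1%). In clone 42 over clone 48 they were 1.19 and 0.19, beside 0.051, and 14 of 14 and 3 of 6 were higher in clone 42 (53.5%); Ebp, at 0.017, turned lower with quantile normalization and with scaling to the median, which left 13 of 14. The sterol median minus the fatty acid median was thus 0.61 in clone 42 over puroB, -0.11 in clone 48 over puroD, 0.18 in puroB over puroD and 1.00 in clone 42 over clone 48. Since these ratios share arrays, they are not independent of each other. Scaling each array to its median shifted the median of all tested probe sets by 0.123, 0.218, -0.137 and -0.231 in these ratios, and the fatty acid median in clone 42 over clone 48 was then -0.041.

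**Figure D5:**
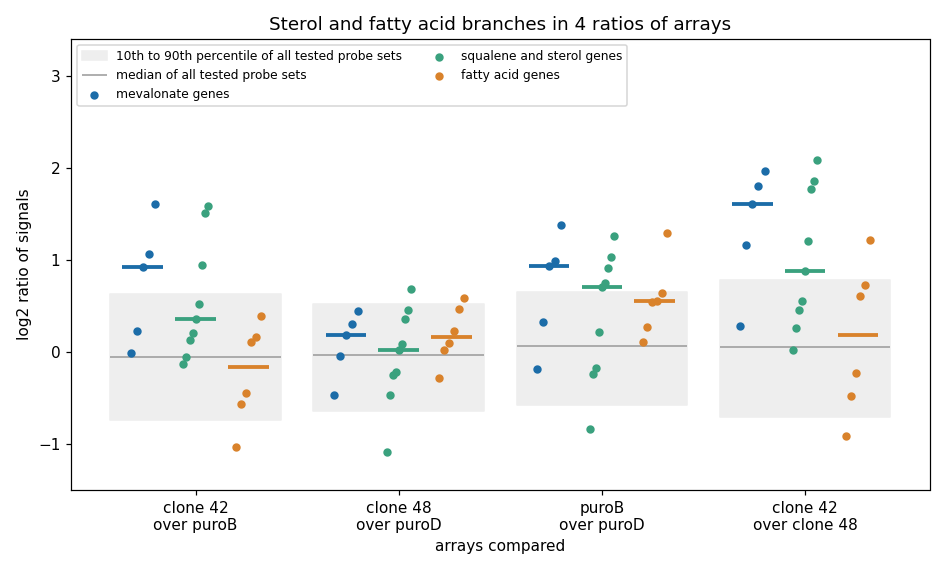
Log2 ratios of signals for mevalonate (blue), squalene and sterol (green) and fatty acid (orange) genes in 4 ratios of arrays, with 1 point per gene and a thick bar at the median of each group; grey bands span the 10th to the 90th percentile of all 6419 tested probe sets and grey lines mark their median. In the order drawn, the mevalonate medians are 0.93, 0.19, 0.93 and 1.60 and the fatty acid medians -0.17, 0.16, 0.55 and 0.19; the bands describe single probe sets and are no measure for a median.

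Between Nurr1-labelled and control clones 0 of the 28 member probe sets passed in either direction in limma, where 4 of all tested probe sets passed as higher (0.0623%) and 3 as lower (0.0467%). At an unadjusted p under 0.05, 2 of 28 were higher, Msmo1 and Fdft1 (2.32% of all), and 0 lower (5.06%). Of the 22 genes, 11 were higher in the Nurr1-labelled clone of both pairs (21.7%) and 4 lower (29.7%), namely Mvk, Ebp, Srebf1 and Fasn; 7 went in opposite directions (48.7%). These counts depend on the scaling: they were 8, 2 and 12 with quantile normalization and 13, 2 and 7 with scaling to the median, and Mvk and Ebp were no longer lower in both pairs under either. The median difference was 0.62 over mevalonate genes, 0.12 over squalene and sterol genes and 0.067 over fatty acid genes, beside -0.038 over all tested probe sets. Without clone 42 the fitted difference was -0.20 for Idi1, -0.28 for Mvd and -0.18 for Hmgcs1, in a fit that then sets clone 48 against both controls.

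Other genes of these pathways, from a list of 37, gave 16 tested genes, and 0 of them passed either comparison. Between the pairs 6 of 16 had both arrays of the clone 42 pair above both of the other (23.4% of all tested probe sets) and 0 below (16.8%). The highest were Lpin1, a phosphatidate phosphatase (1.33 ± 0.39; limma adjusted p = 0.199), and Npc2, the soluble partner of Npc1 (0.98 ± 0.32; limma adjusted p = 0.240). The lowest were Cyp7b1, an oxysterol hydroxylase (-0.18), and malic enzyme Me1, a source of NADPH for fatty acid synthesis (-0.053). By label the highest were Npc2 (0.51) and the fatty acid-binding protein Fabp5 (0.38). Fabp7, which binds fatty acids in radial glia, had the lowest, -2.24, with signals of 564.5 and 157.3 in clone 42 and clone 48 against 1293 and 1539 in puroB and puroD (limma adjusted p = 0.0503), followed by the elongase Elovl5 (-0.63). PuroB was the highest of the 4 arrays in 12 of these 16 genes, against 29.1% of all tested probe sets and 1 of the 14 sterol synthesis genes (Dhcr7).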

How the data were processed

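The table deposited by the authors gives a linear intensity for each of 12469 probe sets on each array. It was made with MAS5 per the submitters' processing notes; the sources used here name no version or scaling target. Arrays were brought to a 2% trimmed mean of 500. A floor was set at 40.27, the 30th percentile over the table, before log2. The 6419 tested probe sets passed 145.05, the overall median, on 2 or more arrays; 66 array controls were left out. Deposited signals are printed; ratios and fits use the rescaled ones, and signals at the floor bound a ratio.

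limma 3.58.1 in R 4.3.3 was fitted to all 4 arrays with the label and the matched pair as terms (eBayes with an intensity trend, Benjamini-Hochberg over all tested probe sets, threshold 0.05). The pairing comes from the labels; same-pair arrays' deviations correlated with r = 0.192 across genes. The fit has 1 residual degree of freedom, to which the prior adds 13.1, and the script was tested on simulated data. Ratios of single arrays have no test. Depth is not defined for arrays, and the number of clones limits the precision. Nothing in the labels says how cultures were replicated. The p-values rest on what the label and pair terms leave unexplained, pooled with a prior from all tested probe sets. They do not measure the whole spread between clones that share a label.

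Each gene is represented in counts and medians by its brightest tested probe set. Symbols came from the platform annotation, where 10814 gene probe sets had 1 symbol, 396 several and 1193 none. Every member is named, with the other pathway genes that passed or were among the 2 highest or 2 lowest per comparison. Members and lists were chosen with earlier results of these data known. Alternatives covered scaling, floor, filter, intensity trend, model terms, averaging of probe sets and leaving out each array.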

Additional observations from a re-analysis of the deposited data

Results flagged for a closer look

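Of the tested probe sets, 8 of 28 went in opposite directions in the matched pairs, where 48.7% of all tested probe sets did; with 1 array per clone the difference between the pairs was not tested. The following values are the log2 ratio of clone 42 over puroB minus that of clone 48 over puroD. Idi1 gave 1.64 and Tm7sf2 1.29, of which the ratio in the pair of clone 48 was -0.04 for Idi1 and -1.09 for Tm7sf2. Scd1 gave 1.32 at 94057_g_at, Cyp51 0.827 and Lss 0.345, each higher in clone 42 and lower in clone 48 than in its control. Acly gave -1.03, Elovl6 -0.788 at 103665_at and Dhcr7 -0.488, each lower in clone 42 and higher in clone 48. Under median scaling the ratios of Idi1 and Lss in the pair of clone 48 turned positive.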

How the results depend on the processing

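The number of member probe sets called between the pairs, 2 in the fit reported, was 0 with quantile normalization, no filter, no intensity trend or no label term, 4 with the floor at the median, 10 with the filter on all 4 arrays, 1 gene with probe sets averaged per gene, and 0 to 9 when 1 array was left out. At an unadjusted p under 0.05 it was 14, 6 with no filter, and 8 to 16 when 1 array was left out. Between labels it was 0, then 1 with scaling to the median and 0 to 2 when 1 array was left out; at an unadjusted p it was 2, then 4 with quantile normalization, 10 with scaling to the median, 5 with the floor at the median, 6 with the filter on all 4 arrays and 1 to 13 when 1 array was left out. With no replicate block, that is without the pair in the fit, the label counts were 0 after adjustment and 1 (Fdft1) at an unadjusted p. Over all probe sets, the 7 calls by label became 0 with quantile normalization, no floor, no filter, no block or averaging per gene, 17 with the floor at the median, 49 with the filter on all 4 arrays and 51 with scaling to the median. The 31 calls by pair became 0 with quantile normalization, no filter or no label term, 17 with no intensity trend, 63 with scaling to the median and 100 with the filter on all 4 arrays. When 1 array was left out they ran from 0 to 51 (without clone 48) by label and from 0 to 129 (without puroB) by pair. Leaving out an array leaves no residual degree of freedom with the pair as a block, so these fits hold the compared factor alone.

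When 1 array was left out the difference by label ran from -0.28 to 1.53 for Mvd, -0.18 to 1.42 for Hmgcs1, -0.20 to 1.77 for Idi1, -0.35 to 1.02 for Fdps (99098_at), -0.22 to 1.08 for Scd1 (94056_at), and -0.41 to 1.49, -0.17 to 1.12 and -0.37 to 1.40 for the Nsdhl probe sets 93868_at, 98630_at and 98631_g_at. The difference by pair ran from -0.018 to 1.08 for Srebf1 and -0.064 to 1.09 for Elovl6 (94418_at). Signals near the control level, such as those of Insig1 and Hsd17b7, limit what can be read from dim genes, and the cause of the lost calls was not tested.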
